A study of Rattus norvegicus with 8 samples.

Results

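The corticosteroid receptors and a set of genes commonly used as readouts of their activity were followed in the whole blood of hypertensive rats. The 9 genes were taken by name from the deposited counts, which list 17446 genes, and are the receptors Nr3c1 and Nr3c2, the receptor co-chaperone Fkbp5, the steroid-induced genes Tsc22d3, Sgk1, Klf9, Ddit4 and Zbtb16, and the steroid-induced decoy receptor Il1r2. All 9 were found, and 7 passed the filter on low counts, as did 7994 of all genes, while Nr3c2 and Zbtb16 did not. RNA was sequenced from 8 libraries of male Wistar rats aged 12 to 14 weeks, in 4 groups of 2 libraries. In the AngII model, angiotensin II was infused at 0.4 mg/kg per day by osmotic minipump, and in the DOCA–HS model the rats received deoxycorticosterone acetate at 100 mg/kg subcutaneously each week with 0.9% NaCl and 1% KCl in the drinking water. Blood was taken before CMG administration, at week 1 of the AngII model and week 3 of the DOCA–HS model, and again after 4 weeks of daily oral Chios mastic gum (CMG, the resin of Pistacia lentiscus) at 220 mg/kg, at week 5 and week 7. No library of untreated rats, or of model rats that went without CMG, was analysed here, so 4 weeks of CMG and 4 more weeks of the model cannot be told apart, and the models differ in the week of sampling as well as in the agent. No source says that a replicate number marks a rat. The fits were therefore unpaired, and p-values measure only the spread between these libraries.

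Glucocorticoids and mineralocorticoids act through nuclear receptors that wait in the cytoplasm in a complex with heat shock protein 90 and its co-chaperones, enter the nucleus once a steroid binds, and raise or lower transcription of their targets. The glucocorticoid receptor is encoded by Nr3c1 and is found in nearly all leukocytes, whereas the mineralocorticoid receptor, encoded by Nr3c2, is best known from the sodium-transporting cells of the kidney and binds aldosterone, deoxycorticosterone and corticosterone. Deoxycorticosterone, the steroid given in the DOCA–HS model, is therefore an agonist of this second receptor, and Sgk1, Klf9, Fkbp5, Tsc22d3, Ddit4 and Zbtb16 are induced by corticosteroids in many cell types.

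The promoters of Klf9, Tsc22d3 and Sgk1 are shown because these genes, with Il1r2, lay lower in every library after CMG administration than in every library before it in the AngII model. Scaled by total counts, of these genes only Il1r2 kept this order. Each sequence is the 250 bases before the start of a RefSeq transcript in the GRCr8 assembly, another assembly than the rn6 used for the counts, and capitals mark GAACA or its reverse complement TGTTC, the core on each side of a glucocorticoid response element.
Klf9 promoter, chr1:230126396-230126645, plus strand: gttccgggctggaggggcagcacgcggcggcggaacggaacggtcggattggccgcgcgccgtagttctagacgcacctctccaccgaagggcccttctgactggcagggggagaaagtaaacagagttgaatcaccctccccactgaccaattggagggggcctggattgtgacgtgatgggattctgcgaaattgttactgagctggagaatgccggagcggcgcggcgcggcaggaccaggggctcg
Tsc22d3 promoter, chrX:109066390-109066639, minus strand: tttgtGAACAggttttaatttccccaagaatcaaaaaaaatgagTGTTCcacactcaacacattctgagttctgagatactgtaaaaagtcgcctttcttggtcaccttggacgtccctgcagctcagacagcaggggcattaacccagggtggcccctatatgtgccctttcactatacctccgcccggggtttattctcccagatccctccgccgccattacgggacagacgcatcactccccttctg
Sgk1 promoter, chr1:24807232-24807481, minus strand: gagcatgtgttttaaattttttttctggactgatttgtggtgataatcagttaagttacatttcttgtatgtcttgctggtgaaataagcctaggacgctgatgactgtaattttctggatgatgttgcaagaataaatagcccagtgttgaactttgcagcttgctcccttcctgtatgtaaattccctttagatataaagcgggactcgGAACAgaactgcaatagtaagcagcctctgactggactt

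RefSeq windows of 300 bases, from 250 before to 50 after a start, were matched for 6 of the 9 genes, in 11 windows, and none was matched for Nr3c2, Zbtb16 or Il1r2. The whole element, AGAACA and TGTTCT with any 3 bases between them, was in 0 of the 11 windows and in 0.012% of the 33469 windows of all genes, and its inner part, GAACA and TGTTC with the same spacing, in 0 of 11 and 0.0418%. On either strand, AGAACA was in 0 of 11 windows against 17.5% of all, and GAACA, which lies within it, in 2 of 11 against 39.1%. These percentages of all genes were counted in the 250 bases before the start only, and the counts of 11 in the whole 300 bases. In the 250 bases alone the counts of 11 were the same. Sgk1 and Tsc22d3 have 3 windows each, of which the window shown is that with the core in the 250 bases before the start. The Sgk1 window shown holds it once, with its first base at position −39 from the start, and the Tsc22d3 window shown holds it at positions −245 and −206. In the Klf9 window it was not found. These matches describe the letters of the windows only, since binding of the receptors was not measured.

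Total counts ran from 4149104 to 13205565 per library, but hemoglobin transcripts took 61.9% to 84.3% of them, which left 651764 to 4490083 counts outside hemoglobin. The second DOCA–HS library after CMG administration stood apart, with 2686 genes at 10 or more counts against 6097 to 8280 in the other libraries, so each DOCA–HS value after CMG rests in part on a shallow library. Levels are given as normalized CPM, counts scaled to the size of each library with edgeR's TMM factors (0.343 to 1.88), and are compared between libraries for a given gene, not between genes. Of the blood cell markers, all 10 neutrophil, 10 T cell and 6 cytotoxic lymphocyte genes were listed in the counts, with 6 of 7 B cell, 6 of 7 monocyte, 5 of 6 erythroid and 4 of 5 platelet genes, and of the 5 heart muscle genes 1 count was found in all, in 1 library. Of these markers Gp1bb was at 0 in every library, Lcn2 was at 0 in the first DOCA–HS library after CMG, and Cd4, Cd5, Blk and Cd14 were at 0 in the second. In the bulk RNA of blood, fewer cells of a type and less RNA per cell cannot be told apart.

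**Figure D1:**
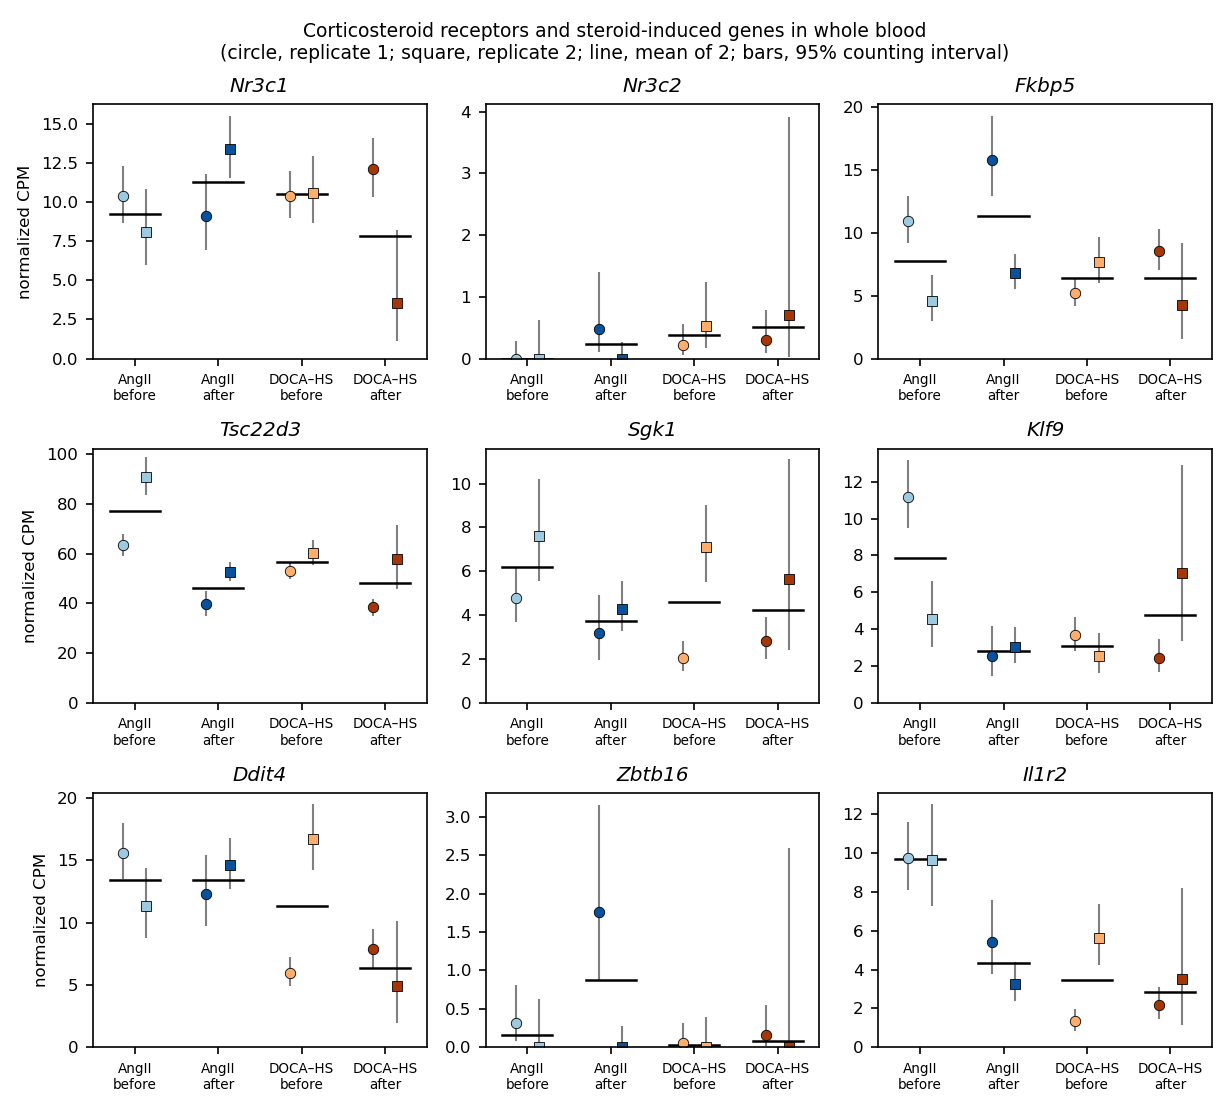
Normalized CPM of each of the 9 genes (vertical axis, from 0) in the 2 libraries of each group, AngII before and after and DOCA–HS before and after CMG administration, with circles for replicate 1, squares for replicate 2, a line at the mean and bars for the 95% counting interval. In the AngII model, Tsc22d3, Sgk1, Klf9 and Il1r2 are lower in both libraries after CMG than in both before, while in the DOCA–HS model the before and after libraries of every gene overlap.

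The glucocorticoid receptor gene showed no difference between groups beyond the spread between libraries. Nr3c1 was at 10.4 and 8.11 normalized CPM in the AngII libraries before CMG administration and at 9.12 and 13.4 after it, and at 10.4 and 10.6 before and 12.1 and 3.52 after it in the DOCA–HS model. The groups overlapped in both models, and the lowest value came from 5 counts in the shallow library, with a 95% counting interval of 1.14 to 8.2 normalized CPM. By edgeR's quasi-likelihood test, the log2 fold change after against before CMG was 0.30 ± 0.33 (SE, adjusted p = 0.848) in the AngII model and −0.27 ± 0.55 (adjusted p = 0.997) in the DOCA–HS model. Over both times, DOCA–HS against AngII gave −0.09 ± 0.33 on the log2 scale (edgeR, adjusted p = 1). Without the shallow library the DOCA–HS change after CMG was 0.21, and without the other library after CMG it was −1.58 and was larger in size than the study's threshold of 1.5, so its sign was set by which of the 2 was kept.

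The mineralocorticoid receptor was near the limit of detection. Nr3c2 had 0 and 0 counts in the AngII libraries before CMG administration and 3 and 0 after it, and 4 and 5 counts before and 4 and 1 after it in the DOCA–HS libraries. Every DOCA–HS library thus held at least 1 count, against 1 of the 4 AngII libraries. A count of 0 allows up to 0.236, 0.507 and 0.222 normalized CPM (3 counts) in the 3 AngII libraries without a count, limits that lie among the DOCA–HS levels of 0.222, 0.531, 0.308 and 0.703 normalized CPM. Pooled over libraries, 14 counts in DOCA–HS against 3 in AngII gave a ratio of 4.28 per normalized count (95% interval 1.19 to 23.2) and 5.66 per total count (1.58 to 30.7), intervals that cover counting error only and not the spread between rats. The gene did not pass the filter, and without a filter the log2 fold change between the models was 2.96 (edgeR, unadjusted p = 0.0291).

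Fkbp5, an immunophilin of the receptor complex that lowers the receptor's affinity for glucocorticoid and is itself among the genes most readily induced by it, showed no difference beyond the spread between libraries. It was at 10.9 and 4.56 normalized CPM before and 15.8 and 6.8 after CMG administration in the AngII model, and at 5.21 and 7.65 before and 8.53 and 4.22 after it in the DOCA–HS model. Replicates differed more than the group means, with the second AngII library at 0.417 times the first before CMG and 0.43 times after it. The log2 fold change (edgeR) was 0.50 ± 0.52 (SE, adjusted p = 0.845) after CMG in the AngII model and 0.12 ± 0.50 (adjusted p = 0.997) in the DOCA–HS model.

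The first question of the design is how these genes differed after against before CMG administration within the AngII model. Klf9, which encodes a zinc finger transcription factor of the Krüppel-like family, was the only one of the 7 tested genes past the criterion of the study, with more than 1.5 of log2 change either way and an unadjusted p of at most 0.05. That is 1 of 7, against 1.24% of all 7201 genes tested, or 0.333% for the lower direction alone. Il1r2, Tsc22d3 and Sgk1 were lower as well without meeting it. By normalized CPM, these 4 of the 7 genes had both libraries after CMG below both before it, against 18.5% of all genes tested. The opposite order was found in 0 of the 7, against 21.3%. By total counts and by counts outside hemoglobin, the libraries before and after CMG overlapped for Klf9, Tsc22d3 and Sgk1. Of the 4 genes only Il1r2 stayed apart. By total counts Klf9 was at 10.8 and 3.54 CPM before and 2.35 and 4.12 after CMG. The median log2 fold change of the 7 genes was −0.65, with 4 below 0, against −0.01 over all genes tested. At an adjusted p under 0.05, edgeR called 0 genes of the whole table (479 at an unadjusted p of at most 0.05), DESeq2 called 3 and limma-voom 0.

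Klf9 was at 11.2 and 4.56 normalized CPM (143 and 27 counts) in the AngII libraries before CMG and at 2.56 and 3.03 (16 and 41 counts) after it. On this scale the groups did not overlap. The first library before CMG lay far above the second, which was closer to the libraries after CMG. The means were 7.90 ± 4.72 and 2.80 ± 0.334 normalized CPM (SD, n = 2 each). The log2 fold change was −1.51 ± 0.45 (SE), at the edge of the threshold, with an unadjusted p of 0.0104 and an adjusted p of 0.628 by edgeR's test across all genes. Without the first library before CMG it was −0.68 and without the first after it −1.47, and scaling by counts outside hemoglobin gave −1.1, so the criterion was missed in each case.

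Il1r2 encodes the decoy receptor for interleukin 1, which binds the cytokine without signalling and is carried mainly by neutrophils and monocytes. Its levels were 9.75 and 9.63 normalized CPM before and 5.44 and 3.25 after CMG administration in the AngII model. The libraries before CMG were nearly equal and lay above both libraries after it. Means were 9.69 ± 0.0836 and 4.35 ± 1.54 normalized CPM (SD, n = 2 each), with a log2 fold change of −1.17 ± 0.34 (SE, edgeR, unadjusted p = 0.00878, adjusted p = 0.628). It and Klf9 were the 2 of 7 genes at an unadjusted p of at most 0.05 in the lower direction, against 1.61% of all genes tested. Without the first library after CMG the log2 fold change of Il1r2 was −1.61 and met the criterion, and without the second it was −0.81.

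Tsc22d3, which encodes the glucocorticoid-induced leucine zipper protein, was at 63.4 and 90.9 normalized CPM before and 39.7 and 52.7 after CMG in the AngII model. Sgk1, the serum- and glucocorticoid-regulated kinase that keeps the epithelial sodium channel at the cell surface, was at 4.79 and 7.60 before and 3.20 and 4.29 after it. In both genes every library after CMG was below every library before it by normalized CPM, but not by total counts. Neither difference passed the test. The log2 fold changes were −0.71 ± 0.34 (SE, edgeR, adjusted p = 0.752) for Tsc22d3 and −0.65 ± 0.34 (adjusted p = 0.764) for Sgk1. Scaled by total counts, which moved the median of all genes to 0.36, they were −0.28 and −0.24. Ddit4, an inhibitor of mTOR complex signalling that is induced by glucocorticoids, hypoxia and DNA damage, was at 15.6 and 11.3 before and 12.3 and 14.6 after CMG, with a log2 fold change of 0.01 ± 0.32 (edgeR, adjusted p = 0.993). Its libraries after CMG lay within the range of those before it.

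Markers of several blood cells also differed between these AngII libraries. The summed level of the T cell markers was 233 to 252 normalized CPM before and 167 to 210 after CMG administration, that of the monocyte markers 400 to 411 and 504 to 506, and that of the cytotoxic lymphocyte markers 28.5 to 31.4 and 52.7 to 60. Neutrophil markers summed to 243 to 258 before and 217 to 244 after, B cell markers to 52.5 to 72.3 and 56 to 97, erythroid markers to 491000 to 646000 and 349000 to 541000, and platelet markers to 149 to 484 and 48.4 to 435. By log2 fold change, 8 of 10 T cell (median −0.4), 5 of 5 erythroid (−0.44), 3 of 3 platelet (−0.35) and 6 of 10 neutrophil markers tested (−0.22) were below 0, as were Klf9, Il1r2, Tsc22d3 and Sgk1, while 5 of 6 monocyte (0.47), 5 of 5 cytotoxic lymphocyte (1.17) and 4 of 6 B cell markers (0.25) were above 0. Their part in these results was not tested.

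**Figure D2:**
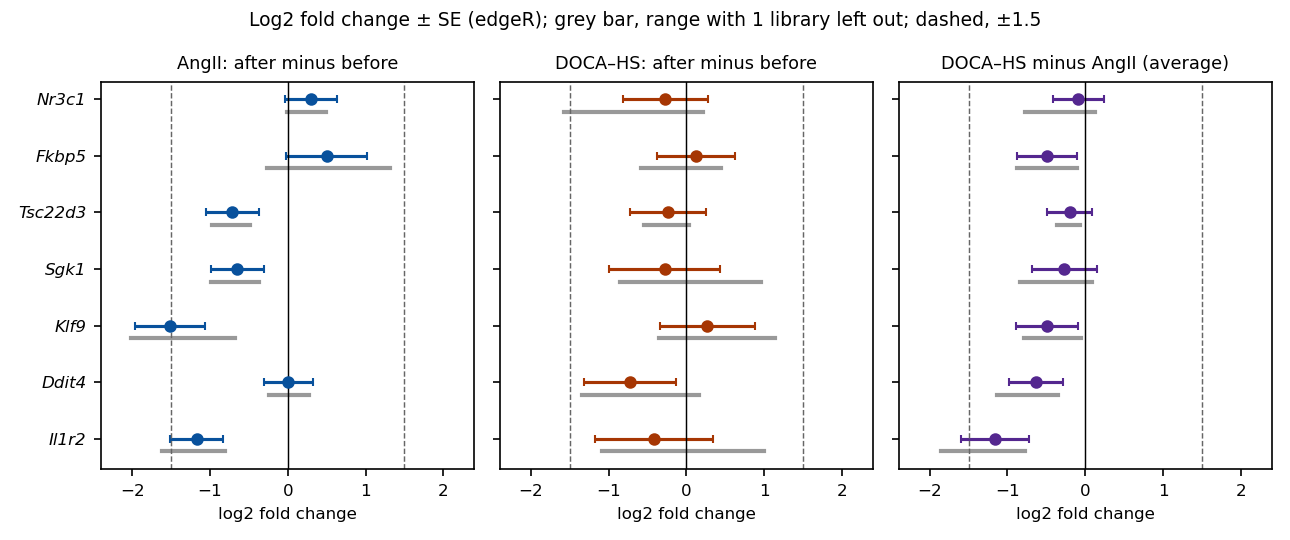
Log2 fold change (horizontal axis) of the 7 tested genes for the AngII model and the DOCA–HS model (after against before CMG administration), and for DOCA–HS against AngII averaged over both times, as points with SE from edgeR, with a grey bar for the range when 1 library is left out and dashed lines at 1.5 in each direction. Klf9 in the AngII model lies at −1.51 with a grey bar from −2.02 to −0.68, and in the DOCA–HS model the grey bars of all 7 genes cross 0.

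The same question in the DOCA–HS model gave no gene past the criterion. Of the 7 tested genes 0 met it, against 2.05% of 7720 genes tested, and 0 were at an unadjusted p of at most 0.05, against 3.17%. None of the 7 had both libraries after CMG administration below or above both libraries before it, against 21.1% and 14.7% of all genes tested. The median log2 fold change was −0.27, with 5 of 7 below 0, against −0.04 over all genes. In the whole table edgeR called 0 genes at an adjusted p under 0.05 (245 at an unadjusted p of at most 0.05), and DESeq2 and limma-voom also called 0.

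Klf9 was at 3.66 and 2.55 normalized CPM before and 2.46 and 7.03 after CMG in the DOCA–HS model, the highest of these from 10 counts in the shallow library. Its log2 fold change was 0.27 ± 0.61 (SE, edgeR, adjusted p = 0.997), and −0.35 without that library. Before CMG both DOCA–HS libraries were below both AngII libraries by normalized CPM, at about the level that the AngII libraries had after it. The share of all genes with this order before CMG was not counted. By total counts the libraries before CMG overlapped, at 6.85 and 2.94 CPM in DOCA–HS and 10.8 and 3.54 in AngII. Tsc22d3 was at 53.1 and 60.1 before and 38.4 and 57.7 after CMG, with a log2 fold change of −0.24 ± 0.49 (edgeR, adjusted p = 0.997).

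Sgk1, Ddit4 and Il1r2 were set apart by the 2 DOCA–HS libraries before CMG. Sgk1 was at 2.05 and 7.12 normalized CPM before and 2.84 and 5.63 after CMG administration. Ddit4 was at 5.98 and 16.7 before and 7.84 and 4.92 after it, and Il1r2 at 1.33 and 5.63 before and 2.15 and 3.52 after it. In each of the 3 genes the second library before CMG was several-fold above the first, by 3.47 times for Sgk1, 2.79 times for Ddit4 and 4.23 times for Il1r2. The summed neutrophil markers stood at 132 and 437 normalized CPM in the same libraries, a ratio of 3.33, while Nr3c1 (1.02), Tsc22d3 (1.13) and the T cell markers (0.969) were at ratios near 1. Erythroid (2.31), cytotoxic lymphocyte (1.72), monocyte (1.57) and platelet (1.37) markers and Fkbp5 (1.47) were also higher in the second library, and B cell markers (0.741) and Klf9 (0.697) lower. In the libraries after CMG the neutrophil markers were at 200 and 498 normalized CPM, a ratio of 2.49. Erythroid (5.95), platelet (1.63) and cytotoxic lymphocyte (1.55) markers, Klf9 (2.86), Sgk1 (1.98), Il1r2 (1.63) and Tsc22d3 (1.5) were also higher in the second. Ddit4 (0.628), Fkbp5 (0.494), Nr3c1 (0.291) and T cell (0.936), monocyte (0.621) and B cell (0.482) markers were lower. That second library is the shallow one, with 8 counts of Sgk1, 7 of Ddit4 and 5 of Il1r2. The part of neutrophil number in these levels was not tested. The log2 fold changes after CMG were −0.28 ± 0.71 for Sgk1, −0.73 ± 0.59 for Ddit4 and −0.42 ± 0.76 for Il1r2 (SE, edgeR, adjusted p = 0.997 for each). Leaving out the first library before CMG gave −0.85, −1.34 and −1.09, and leaving out the second gave 0.96, 0.16 and 1.00.

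The design also compares the models, of which a steroid was given only in DOCA–HS. The rats' own steroids were not measured here. Over both times, 0 of the 7 tested genes met the criterion in DOCA–HS against AngII, against 0.275% of 7994 genes tested, although all 7 log2 fold changes were below 0, with a median of −0.49 against 0.02 over all genes. None of the 7 genes had all 4 DOCA–HS libraries below all 4 AngII libraries, against 0.826% of all genes, or all above, against 0.888%. By counts outside hemoglobin, which moved the median of all genes to 0.35, Nr3c1, Tsc22d3 and Sgk1 turned to 0.25, 0.03 and 0.02. In the whole table edgeR called 0 genes at an adjusted p under 0.05 (205 at an unadjusted p of at most 0.05), DESeq2 called 2 and limma-voom 0.

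Il1r2 was the 1 of 7 genes at an unadjusted p of at most 0.05 between the models, against 2.56% of all genes. Its 4 AngII values of 3.25 to 9.75 normalized CPM overlapped the 4 DOCA–HS values of 1.33 to 5.63. The log2 fold change was −1.16 ± 0.44 (SE, edgeR, unadjusted p = 0.024, adjusted p = 1), and it was −1.85, past the criterion, without the second DOCA–HS library before CMG and −0.77 without the first. Neutrophil markers summed to 217 to 258 normalized CPM in the AngII libraries and to 132 to 498 in the DOCA–HS libraries, and monocyte markers to 400 to 506 and 387 to 680.

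The other differences between the models did not pass the test. Ddit4 had a log2 fold change of −0.63 ± 0.35 (SE, unadjusted p = 0.103), Klf9 of −0.49 ± 0.40, Fkbp5 of −0.49 ± 0.39, Sgk1 of −0.27 ± 0.42 and Tsc22d3 of −0.20 ± 0.29 (edgeR, adjusted p = 1 for each). The 2 genes best known as mineralocorticoid and glucocorticoid readouts in kidney and leukocytes, Sgk1 and Tsc22d3, lay in overlapping ranges in the 2 models, 3.2 to 7.6 normalized CPM in AngII against 2.05 to 7.12 in DOCA–HS for Sgk1 and 39.7 to 90.9 against 38.4 to 60.1 for Tsc22d3.

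Zbtb16, a transcription factor strongly induced by glucocorticoid in many cells and expressed in innate-like T cells, was seen in a few reads. It had 4 and 0 counts before and 11 and 0 after CMG administration in the AngII libraries, and 1 and 0 before and 2 and 0 after it in the DOCA–HS libraries. All counts came from the replicate 1 libraries, and 11 of them from 1 library. Pooled, 3 counts in DOCA–HS against 15 in AngII gave a ratio of 0.183 per normalized count (95% interval 0.034 to 0.648, counting error only). The gene did not pass the filter, and without a filter the log2 fold change between the models was −2.24 (edgeR, unadjusted p = 0.0452).

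Whether the change after CMG administration differed between the models was tested as an interaction over all 8 libraries. For Klf9 the difference was 1.75 ± 0.80 on the log2 scale (SE, edgeR, unadjusted p = 0.052, adjusted p = 0.881), from changes of −1.51 with AngII and 0.27 with DOCA–HS when each model was fitted alone. Of the 7 genes 0 met the criterion, against 3.16% of all genes tested. Klf9 met it by DESeq2 (1.98), without a filter (1.73) and with the replicate block (1.53). In these fits 312 of 7994, 577 of 11692 and 454 of 7994 genes met it. The difference for Klf9 was 2.24 without the second AngII library before CMG. Without the first DOCA–HS library after CMG, which left only the shallow library there, Klf9 was at 2.7 and Nr3c1 at −1.86. Il1r2 was at 2.12 without the second DOCA–HS library before CMG. With all 8 libraries, Il1r2 gave 0.76 ± 0.88 and the other 5 genes from −0.72 to 0.49. Scaling by total counts, which moved the median of all genes to −1.21, turned the sign for Tsc22d3, Sgk1 and Il1r2. On average over the models, the change after CMG met the criterion in 0 of 7 genes, against 0.363% of all, with log2 fold changes of −0.81 for Il1r2, −0.64 for Klf9, −0.49 each for Tsc22d3 and Sgk1, −0.36 for Ddit4, 0.32 for Fkbp5 and 0.02 for Nr3c1. At an adjusted p under 0.05, edgeR's test across all genes called 0 genes in each of these fits (299 and 314 at an unadjusted p of at most 0.05), DESeq2 called 1 and 2, and limma-voom 0 and 0.

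Other genes known to be induced by glucocorticoids were read from a list of 31, of which 30 were in the counts. The list was chosen with earlier results of these data known. Its counts beside the shares of all genes therefore describe these libraries and are no test of the list. After CMG administration in the AngII model, 2 of 24 tested met the criterion, both lower, against 0.333% of all genes. They were Txnip, which encodes a thioredoxin-binding protein that restrains glucose uptake, with a log2 fold change of −2.45 ± 0.39 (SE, edgeR, adjusted p = 0.533), and Nfkbia, the inhibitor that holds NF-κB in the cytoplasm, with −1.56 ± 0.31 (adjusted p = 0.59). Nfkbia was at 63.7 and 61.3 normalized CPM before and at 19.5 and 22.3 after CMG in AngII rats, and at 23.7 and 22.8 before it in DOCA–HS rats. Bcl6 and Cebpd had log2 fold changes in the opposite direction, of 1.29 ± 0.29 and 1.44 ± 0.36 (edgeR, adjusted p = 0.628 for each), at an unadjusted p of at most 0.05. The median of the list was −0.36, with 16 of 24 genes below 0, against −0.01 over all genes. By total counts and by counts outside hemoglobin, 2 genes were higher and 1 lower past the criterion and the list's median was 0.03 and 0.05, against 0.36 and 0.38 over all genes, and without the first library after CMG 5 were lower.

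In the DOCA–HS model 2 of 22 tested genes of this list met the criterion, both lower, against 0.259% of all genes. Txnip had a log2 fold change of −2.34 ± 0.56 (SE, edgeR, adjusted p = 0.997), with values of 243 and 254 normalized CPM before and 57.8 and 39.4 after CMG, and so lay lower after CMG in both models. The paper had already reported Txnip as lower in both models. The other, Lcn2, is also a neutrophil marker and rested on 0 and 0.703 normalized CPM after CMG. The list had a median of −0.28, with 17 of 22 genes below 0, against −0.04 over all genes. The count of lower genes was 1 without either library before CMG and 6 without the first library after it, and 1 higher gene was added without either library after CMG.

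Between the models, 7 of 25 tested genes of the list were lower in DOCA–HS at an unadjusted p of at most 0.05, against 1.64% of all genes, and 0 were higher. Of these, 3 met the criterion, Thbd, the thrombin receptor thrombomodulin (log2 fold change −2.29 ± 0.49), Lcn2 (−2.05 ± 0.74) and Cdkn1a, a cell cycle inhibitor (−1.54 ± 0.58, SE, edgeR, adjusted p = 1 for each). Thbd and Cdkn1a had 0 counts in the shallow library. The count of 3 became 1 by total counts, by counts outside hemoglobin and without the first AngII library before CMG, 2 by limma-voom and without the first DOCA–HS library before CMG or the second after it, 0 with at least 10 counts in every library, and 5 by DESeq2 and without the second AngII library before CMG. The circadian repressor Per1 was at 7.47 to 22.7 normalized CPM in the AngII and at 1.41 to 5.46 in the DOCA–HS libraries, with no overlap. Its lowest value came from 2 counts in the shallow library. The chemokine receptor gene Cxcr4, named after its values were seen, did not overlap either, at 53 to 113 and 45.1 to 50.6. Of all genes, 0.826% had this order. By total counts both genes overlapped. Per1 had 97 of 9631446 counts in the first DOCA–HS library before CMG and 60 of 7628236 in the second AngII library before CMG. The median of the list was −0.35, with 18 of 25 below 0, against 0.02 over all genes. The count of 7 fell to 1 when scaled by total counts or by counts outside hemoglobin, where the list's median was −0.02 and 0 and that of all genes 0.27 and 0.35, and lay between 2 and 8 when 1 library was left out, with 2 without the first AngII or the first DOCA–HS library before CMG. On average over the models, 3 of 25 genes of the list met the criterion after CMG, against 0.363% of all genes. All 3 were lower (Txnip, −2.41 ± 0.32, edgeR, adjusted p = 0.116, with Thbd and Lcn2). In the difference between the models 2 of 25 did, against 3.16% of all genes. They were Mt1 (2.66 ± 1.19) and Cebpd (−1.77 ± 0.74, edgeR, adjusted p = 0.881 for each). Mt1 had 0 to 47 counts per library, and Cebpd had 4 in the shallow library. This count of 2 became 0 by DESeq2, by limma-voom and by total counts. The list and the 7 genes were chosen with earlier results of these data known, so the counts describe these libraries.

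**Figure D3:**
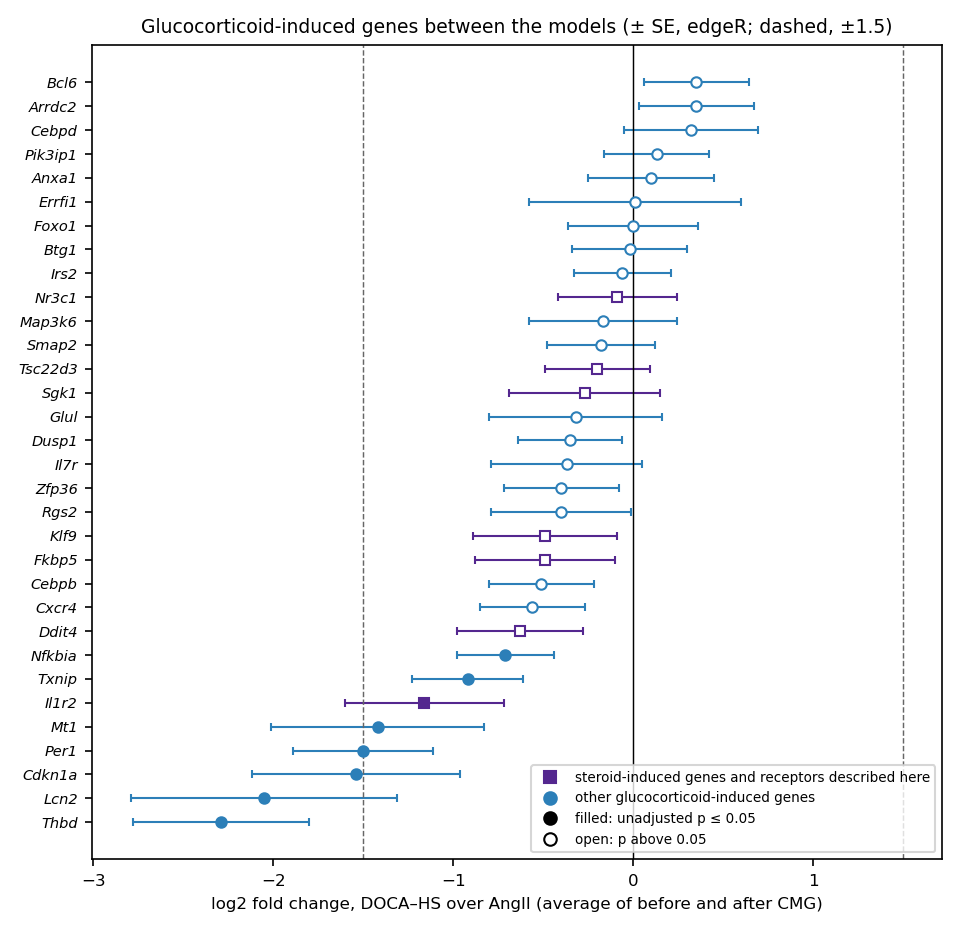
Log2 fold change of DOCA–HS over AngII, averaged over both times (horizontal axis, points with SE from edgeR), for the 25 tested genes of the list of glucocorticoid-induced genes (circles) and the 7 tested genes described here (squares), filled where the unadjusted p was at most 0.05, with dashed lines at 1.5 in each direction. All 7 squares lie left of 0 and Il1r2 is the only filled square, while 7 circles are filled, all of them left of 0.

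The machinery around the receptors was read from the other lists. Of 20 listed chaperones and co-regulators found in the counts, 19 or 20 were tested and 0 met the criterion in any of the 5 comparisons. Without a filter 1 was higher past it in the AngII model, as were or fell 201 of all 11196 genes. With the replicate block 1 was higher on average over the models, where 40 of all 7994 genes met the criterion. Without the first DOCA–HS library after CMG, which left only the shallow one, the list's median in the DOCA–HS model was 0.72, against −0.37 over all genes. The cyclophilin Ppid, a co-chaperone of the receptor complex, was at 4.17 and 6.59 normalized CPM before and 2.4 and 2.74 after CMG administration to AngII rats. Its log2 fold change was −1 ± 0.35 (SE, edgeR, unadjusted p = 0.0224, adjusted p = 0.654). It was 1 of 19 genes of this list tested there at an unadjusted p of at most 0.05, against 6.65% of all genes tested. Of the genes for steroid conversion, transport and binding, 1 of 6 was tested, Hsd11b1, whose product regenerates active glucocorticoid, with 1.38 ± 0.65 in the AngII model after CMG (edgeR, adjusted p = 0.752), which met the criterion by total counts and by counts outside hemoglobin. Hsd11b2, whose product protects the mineralocorticoid receptor from glucocorticoid in kidney, had 0 counts in all 8 libraries, which allows up to 0.0374 normalized CPM (3 counts over the 8 libraries). Of 11 genes of mineralocorticoid-regulated sodium transport, 5 to 7 were tested and 0 met the criterion in any of the 5 comparisons. Of the sodium channel subunit genes, Scnn1b and Scnn1g had 0 counts, and Scnn1a was at 0.472 and 0 normalized CPM before and 1.44 and 1.04 after CMG in AngII rats, from 0 to 14 counts, with a log2 fold change of 1.96 ± 0.92 (SE, edgeR, unadjusted p = 0.0665, adjusted p = 0.752). In the AngII model 1 gene of this list met the criterion, in the higher direction, under several alternatives. These were total counts, counts outside hemoglobin, limma-voom, no filter, the replicate block and all 8 libraries in 1 fit. By total counts 222 of all 7201 genes met it, 94.6% of them higher. On average over the models 1 did by DESeq2, by limma-voom and with the replicate block, and in the difference 1 did by limma-voom. The count also depended on which library was left out. Nedd4l, the ubiquitin ligase that removes the epithelial sodium channel and is inhibited by Sgk1, was at 46.2 to 98 normalized CPM in the AngII and 42.4 to 64 in the DOCA–HS libraries, a log2 fold change of −0.66 ± 0.30 (edgeR, unadjusted p = 0.0485, adjusted p = 1).

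The genes whose levels ran most closely with each member were found by Pearson's r of log2 CPM over the 8 libraries among 7987 other genes, as a description. The libraries share their groups, their depth and their cell composition, and the closest of so many genes have a high r by selection. For Tsc22d3 they were Add1 (r = 0.955), Pcna (0.951) and Bloc1s4 (0.95), for Il1r2 Stradb (0.951), Ppp2r5b (0.923) and Tap2 (0.915), and for Klf9 Txnrd2 (0.895), Prrt1 (0.886) and Wdr4 (0.884). For Ddit4 they were Padi4 (0.922), which is among the neutrophil markers, Naprt (0.919) and Kif13a (0.906), and for Sgk1 Timm17a (0.9), Timm8a1 (0.884) and Fam220a (0.861). For Fkbp5 they were RGD1597339 (0.959), LOC290595 (0.957) and Dse (0.94). Lrrk1 (0.99), Usp54 (0.99) and Tpp2 (0.989) were closest to Nr3c1, and like it had their lowest level in the shallow library. Among the members themselves r was 0.76 for Sgk1 with Il1r2, 0.73 for Tsc22d3 with Sgk1 and 0.65 for Ddit4 with Il1r2, and −0.57 for Fkbp5 with Tsc22d3.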

How the data were processed

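Whole blood RNA was sequenced by the authors, who aligned the reads to rn6 with HISAT2 and counted them per gene and strand with HTSeq. The deposited values are raw counts per gene and library, without normalization. The authors state that hemoglobin annotations were removed, but Hbb and LOC100134871 are among the counts, and both were taken here as hemoglobin. Groups followed the labels. Counts were filtered with filterByExpr, scaled by TMM and tested with edgeR's quasi-likelihood test (edgeR 4.0.16, limma 3.58.1, R 4.3.3), within each model for after against before, and over all 8 libraries for the other contrasts. P-values were adjusted by Benjamini-Hochberg over all genes tested. The study's criterion was used for calls. DESeq2 1.42.0, limma-voom, other scalings and filters, a replicate block and leaving out each library were the alternatives. The test was checked on simulated data. With 651764 to 4490083 counts outside hemoglobin, 1 count is a coarse step for Nr3c2 and Zbtb16, and intervals (95%, exact) cover counting error only.

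The members and lists were chosen with earlier results of these data known. Named are all members, from the other lists the 4 tested genes with the smallest unadjusted p in a comparison at most and any gene past the criterion, and the 3 closest genes by correlation, with further genes (Cxcr4, Hsd11b2, Scnn1b and Scnn1g) named after their values were seen. A further list is not reported here. Promoter windows came from RefSeq (GRCr8).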

Additional observations from a re-analysis of the deposited data

How the results depend on the processing

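Of the 7 tested genes, 1 met the criterion in the AngII model after CMG administration. This became 0 by total counts, by counts outside hemoglobin, by limma-voom, with at least 10 counts in every library, with the replicate block and at an adjusted p under 0.05, became 2 at an unadjusted p alone, and ran from 0 to 2 with 1 library left out (0 without the first before CMG, Il1r2 in place of Klf9 without the first after it, and Zbtb16 beside Klf9 without the second after it). In the DOCA–HS model Nr3c1 had a log2 fold change of −1.58 without the first library after CMG, which left only the shallow library in that group. Between the models the count of 0 became 2 without a filter (where Nr3c2 and Zbtb16 entered the test) and 1 at an unadjusted p alone, and ran from 0 to 1 with 1 library left out (Zbtb16 without the second AngII library after CMG, Il1r2 without the second DOCA–HS library before it). Between the models without a filter, 87 of all 11692 genes met the criterion, and Nr3c2 and Zbtb16 had at most 5 and 11 counts in a library. For the difference between the models in the change after CMG, 0 became 1, Klf9, by DESeq2, without a filter and with the replicate block. In these fits 312, 577 and 454 of all genes met the criterion. The average over the models stayed at 0 under every alternative run.

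The replicate numbers are not stated to mark rats, and deviations of libraries with the same number had a correlation of 0.41 for AngII and 0.31 for DOCA–HS over 7994 genes. With the replicate block, edgeR called 165 genes at an adjusted p under 0.05 in the AngII model against 0 without it, and 0, 1, 13 and 5 in the other comparisons. Klf9 then had a log2 fold change of −1.33 with an adjusted p of 0.0061 and Il1r2 one with an adjusted p of 0.0103 there. The block turned Sgk1 and Il1r2 to 0.12 each in the DOCA–HS model and Nr3c1 to −0.05 on average over the models.

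In the AngII model Ddit4 was −0.02 by DESeq2, by its size factors and without a filter, and 0 with all 8 libraries in 1 fit. Scaling by total counts gave −0.42 for Fkbp5 and −0.71 for Klf9 in the DOCA–HS model, 0.23 for Nr3c1 between the models, −0.02 for Nr3c1 on average, and −0.88, −0.72 and −0.17 for Tsc22d3, Sgk1 and Il1r2 in the difference between the models. Scaling by counts outside hemoglobin gave −0.2 for Fkbp5 and −0.15 for Klf9 in the DOCA–HS model, 0.25, 0.03 and 0.02 for Nr3c1, Tsc22d3 and Sgk1 between the models, and −0.49 and −0.38 for Tsc22d3 and Sgk1 in the difference. With at least 10 counts in every library, Klf9 was −0.04 in the DOCA–HS model and Tsc22d3 −0.11 in the difference. These scalings moved the median of all genes by 0.36 and 0.38 with AngII, −0.76 and −0.41 with DOCA–HS, 0.27 and 0.35 between the models, −0.16 and 0.04 on average and −1.21 and −0.89 in the difference, and the share of genes past the criterion that were higher from 73% to 94.6% and 94.5% with AngII, from 87.3% to 0% and 62.5% with DOCA–HS, and from 31.8% to 66.7% and 85.7% between the models. In the whole table, genes past the criterion ran from 22 to 403 with AngII (89 as reported), 9 to 1712 with DOCA–HS (158), 0 to 501 between the models (22), 2 to 497 on average (29) and 32 to 1922 in the difference (253), the highest of each without the first library after CMG of the model compared (AngII for the AngII model, DOCA–HS for the others).

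With 1 library left out, log2 fold changes in the AngII model ran from −0.01 to 0.49 for Nr3c1, −0.27 to 1.31 for Fkbp5 and −0.24 to 0.27 for Ddit4. In the DOCA–HS model they ran from −1.58 to 0.21 for Nr3c1, −0.58 to 0.44 for Fkbp5, −0.55 to 0.03 for Tsc22d3, −0.85 to 0.96 for Sgk1, −0.35 to 1.14 for Klf9, −1.34 to 0.16 for Ddit4 and −1.09 to 1 for Il1r2. Between the models Nr3c1 ran from −0.77 to 0.13 and Sgk1 from −0.84 to 0.09. On average Nr3c1 ran from −0.65 to 0.24, Fkbp5 from −0.06 to 0.7, Sgk1 from −0.85 to 0.08 and Ddit4 from −0.68 to 0.09. In the difference Fkbp5 ran from −1.17 to 0.36, Sgk1 from −0.31 to 1.56, Ddit4 from −1.35 to 0.21 and Il1r2 from −0.03 to 2.12. In the AngII model Klf9 (−2.02 to −0.68), Il1r2 (−1.61 to −0.81), Tsc22d3 (−0.97 to −0.49) and Sgk1 (−0.99 to −0.37) kept their sign. A lone library left in a group is assumed to vary like the other groups. Except where a smaller or larger set of genes or libraries made the change, the cause was not tested.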

Other observations

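As the neutrophil markers differed between DOCA–HS libraries, the counts of each gene were also divided by the summed counts of the 10 neutrophil markers, a ratio that needs no scaling between libraries and that was chosen after the values were seen, so no test was made. Il1r2 had 3.78 and 3.96 counts per 100 neutrophil marker counts in the AngII libraries before CMG administration and 2.23 and 1.5 after it. In the DOCA–HS libraries it had 1.01 and 1.29 before and 1.08 and 0.706 after. All 4 DOCA–HS libraries thus lay below all 4 AngII libraries, and the 2 DOCA–HS libraries before CMG, which differed 4.23 times in Il1r2 level, were close to each other.

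Ddit4 was the other member in this order, with 6.07, 4.66, 5.04 and 6.73 counts per 100 neutrophil marker counts in the AngII libraries and 4.55, 3.81, 3.93 and 0.989 in the DOCA–HS libraries. On this ratio both genes were separated by less than the spread within each model. The closest AngII and DOCA–HS values were 1.5 and 1.29 for Il1r2 and 4.66 and 4.55 for Ddit4. Among all 7994 genes tested, 20 genes (0.25%) had this order on the same ratio. The ratio for the last library rests on 5 counts of Il1r2 and 7 of Ddit4, and both genes are also read in cells other than neutrophils. Against the summed monocyte marker counts the order of Il1r2 did not hold. It had 44 counts beside 6844 of these markers in the second AngII library after CMG. In the second DOCA–HS library before CMG it had 53 beside 6397.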
